A study of Mus musculus with 9 samples.

Results

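Semaphorins are extracellular guidance proteins, plexins are their main receptors, and neuropilins are co-receptors that join plexins in receptor complexes. The genes described here are 10 of these families, taken by exact gene symbol from the 45535 rows of the table that carry a symbol: the ligand genes Sema4a, Sema4d, Sema6d and Sema7a, the receptor genes Plxna1, Plxnb2, Plxnc1 and Plxnd1, and the co-receptor genes Nrp1 and Nrp2. They were measured by RNA sequencing in lung dendritic cells selected for CD103, the integrin chain encoded by Itgae. The extraction label speaks of lung RNA, whereas the cell type label and the design text give bead-selected CD103+ cells, and the text follows the latter. All 9 samples came from C57/BL6j mice given bleomycin, a drug that injures the lung and is used to model fibrosis, for 7 days. Lungs were digested with collagenase and the cells were pulled out on magnetic beads. The 5 samples before culture were harvested directly, and the 4 samples after culture spent 18 h in culture first, in serum-supplemented RPMI with antibiotics. No untreated mouse, no other culture time and no freshly sorted reference population is used here. Whether a sample is 1 mouse or a pool is not labelled, so every p-value below measures the spread between these samples only. Replicates are numbered as in the sample titles.

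Semaphorins were first described as cues that steer growing axons, and many of them also act between immune cells. Most class 3 semaphorins are secreted and need a neuropilin beside the plexin, whereas classes 4 and 6 are membrane proteins that can bind plexins directly and Sema7a is held by a lipid anchor. A bound plexin acts inside the cell on small GTPases, and so on adhesion and the actin skeleton. In dendritic cells these proteins are known for their part in migration into lymphatic vessels and in contacts with T cells.

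The level of a gene is given as a normalized read count, which is the number of reads divided by 1 factor per sample, with its SD. Named genes held 14.7 to 28.8 M reads per sample before culture and 26.0 to 35.3 M after it, and all 10 genes were far above the limit of detection. Changes are log2 fold changes, after minus before, of log2(normalized count + 1) from limma fitted to the 18202 named genes with a mean of at least 10. A gene is said to rise or fall when its Benjamini-Hochberg adjusted p was under 0.05. Of all tested genes 68.8% passed, 34.2% higher and 34.6% lower, so a call by itself is common in this comparison. The marker genes of the labelled cell type changed with the culture. All 10 listed markers of type 1 conventional dendritic cells were detected, and 9 fell, among them Itgae (18138 ± 1537 to 1727 ± 335) and Xcr1 (5836 ± 781 to 114 ± 32.5). All 10 listed markers of mature dendritic cells rose, among them Ccr7 (7918 ± 372 to 53005 ± 2238).

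RNA of other cell types was also present, and for several of them its level differed between the groups. The summed level of 10 endothelial markers was 24630 to 35762 before and 3039 to 4131 after culture, with none of them at 0. That of 8 fibroblast markers was 16029 to 29084 before and 2338 to 4602 after, that of 8 neutrophil markers 14298 to 25015 before and 932 to 1902 after, and that of 10 macrophage and monocyte markers was 16278 to 32768 before and 10571 to 24610 after. Foxp3, which marks regulatory T cells, stood at 626 ± 87.3 before and 618 ± 156 after culture and was not called. The summed T cell markers (6012 to 7233 before, 5752 to 6804 after) and B cell markers (8036 to 11796 before, 5962 to 8330 after) overlapped between groups. In such bulk samples fewer cells of a type and less RNA per cell cannot be told apart, and the part of these cell types in the results below was not tested. Changes also followed the GC content of the transcripts: the median log2 fold change was 0.44 in the quintile of genes with the lowest GC content and -0.42 in the quintile with the highest. Sema4a, Sema7a, Plxna1, Plxnb2 and Plxnd1 lie in that highest quintile. Each result is therefore also given, where it matters, after a correction made sample by sample. It takes each gene's log2 deviation from its mean over the 9 samples and removes the smooth dependence on GC content and transcript length. The correction also brings the mean deviation of every sample to the same value. That step moved the median of all genes from 0.01 to 0.13.

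Of the 10 genes, 6 rose and 2 fell in culture, and 2 were not called. The largest rises were in Nrp2 (6.13-fold), Plxnc1 (5.42-fold), Sema6d (3.21-fold) and Plxna1 (2.76-fold), and smaller ones were seen in Plxnd1 (1.36-fold) and Nrp1 (1.28-fold). Plxnb2 (1.67-fold) and Sema4a (1.56-fold) fell. The 8 calls among 10 genes stand beside 68.8% of all tested genes, the 6 rises beside 34.2% and the 2 falls beside 34.6%, and the 5 genes whose groups did not overlap stand beside 57.3% of all tested genes, so the count of calls lies near the background. The change of Nrp2 lay at the 98.2 percentile of all tested genes and that of Plxnc1 at the 97.7 percentile, and the median of the 10 was 0.39 against 0.01 for all tested genes.

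**Figure D1:**
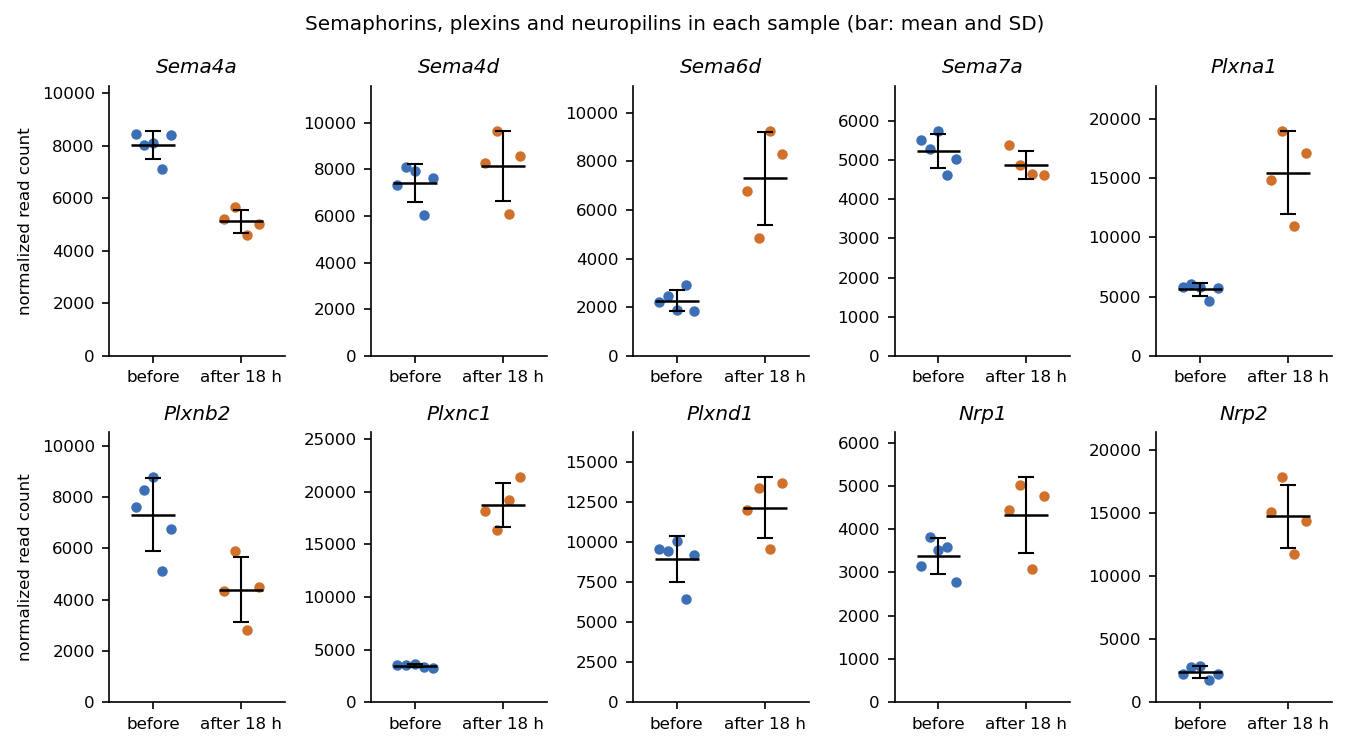
Normalized read count (vertical axes, linear, from 0) of the 10 genes in the 5 samples before and the 4 samples after 18 h of culture. Points are samples and bars are the mean and SD. Plxnc1, Nrp2, Plxna1 and Sema6d lie higher in every sample after culture and Sema4a lower, while the points of the other 5 genes overlap.

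Among the ligands, Sema6d changed most. This gene encodes a membrane semaphorin whose known receptors include plexin A1, and it lies at chr2:124089969-124667770 on the plus strand (positions here and below are those of GENCODE M21 on GRCm38). Its normalized counts were 2205, 2479.9, 1898, 2922 and 1856 in replicates 1 to 5 before culture, and 6793, 4857, 9242 and 8278 in replicates 1 to 4 after it. The lowest cultured sample was 4857 and the highest uncultured sample 2922, so the groups did not overlap. The mean went from 2272 ± 442 (SD, n = 5) to 7292 ± 1911 (SD, n = 4), which is 1.66 in log2 terms (SE 0.175, limma adjusted p = 1.77e-06), and 1.89 after the GC and length correction. The cultured samples ran over a wider range than those of any other ligand here relative to their mean.

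Sema4a moved the other way. It encodes a membrane semaphorin made by dendritic cells that takes part in T cell priming, and it lies at chr3:88435959-88461182 on the minus strand. Before culture the 5 replicates held 8431, 8014, 8116, 7112 and 8416, and after culture the 4 replicates held 5189, 5682, 4614 and 5008. Every cultured sample was below every uncultured one. The mean went from 8018 ± 539 to 5123 ± 443 (SD, n = 5 and 4), a log2 change of -0.65 (SE 0.0795, limma adjusted p = 7.9e-06). With the GC and length correction the change was -0.12 and was not called (limma adjusted p = 0.111).

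Sema4d and Sema7a were not called. Sema4d, also known as CD100, is a membrane semaphorin of lymphocytes and myeloid cells that can be shed from the surface, and it lies at chr13:51685529-51793747 on the minus strand. Its counts were 7334, 8116, 7926, 6049 and 7622 before culture and 8266, 9638, 6061 and 8556 after it. Replicate 4 before culture and replicate 3 after culture were the lowest of their groups and nearly equal, and the groups overlapped. The log2 fold change was 0.12 with a 95% interval from -0.15 to 0.39 (SE 0.125, limma adjusted p = 0.405). Without replicate 3 after culture it was 0.26 and passed (limma adjusted p = 0.0349), and with the GC and length correction it was 0.55 and passed (limma adjusted p = 6.7e-04).

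Sema7a, also known as CD108, encodes the lipid-anchored semaphorin that binds plexin C1 and integrins, and it lies at chr9:57940112-57962865 on the plus strand. It held 5509, 5270.4, 5739.7, 4624 and 5035 before culture and 5369.6, 4879, 4636 and 4615 after it. The 2 ranges largely coincided. Its log2 fold change was -0.10 with a 95% interval from -0.27 to 0.07 (SE 0.0795, limma adjusted p = 0.27). After the correction the sign turned, to 0.49 (limma adjusted p = 1.59e-05), so the direction of this gene depends on how GC content is treated.

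Of the plexins, Plxnc1 rose most and with the smallest spread. Plexin C1 is the receptor of Sema7a, and its gene lies at chr10:94790866-94944835 on the minus strand. The uncultured replicates held 3524, 3537, 3635, 3338 and 3301, and the cultured replicates 18190.0, 16338, 19204 and 21363. All uncultured samples lay within a narrow band and all cultured samples were more than 4 times higher than any of them. The mean went from 3467 ± 142 to 18774 ± 2094 (SD, n = 5 and 4), or 2.43 in log2 (SE 0.0809, limma adjusted p = 2.58e-11), and 2.69 after the correction. Beside its ligand gene Sema7a, which was not called, the ratio of Plxnc1 to Sema7a per kb of exon went from 0.250 to 0.285 before culture to 1.32 to 1.83 after it.

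Plxna1 encodes a receptor of class 3 and class 6 semaphorins that works with neuropilins and is known from the migration of dendritic cells and their contacts with T cells. It lies at chr6:89316314-89362620 on the minus strand. Its counts were 5819.6, 6046, 5825, 4610.2 and 5685 before culture and 14851, 18955, 10909 and 17095 after it, with no overlap. On average Plxna1 went from 5597 ± 567 to 15453 ± 3462 (SD, n = 5 and 4), or 1.44 in log2 (SE 0.138, limma adjusted p = 7.26e-07), and 2.16 after the correction. Of its exon bases, 10.7% overlap Gm26811 on the opposite strand, and whether reads were counted by strand is not given in the sources used here. Gm26811 itself stood at 138 ± 18.2 before and 477 ± 49.2 after culture, far below Plxna1.

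Plxnd1 encodes a receptor known for binding Sema3e and Sema4a, and it lies at chr6:115954811-115995005 on the minus strand. Uncultured samples held 9559.7, 9444, 10039, 6466 and 9176, and cultured samples 11976, 13377, 9569 and 13690.0. The lowest cultured sample, replicate 3, lay inside the uncultured range. On average Plxnd1 went from 8937 ± 1416 to 12153 ± 1877 (SD, n = 5 and 4), or 0.45 in log2 (SE 0.135, limma adjusted p = 0.00977). With the correction the change was 1.31 (limma adjusted p = 9.22e-08), which is the widest difference between these estimates among the 10 genes.

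Plxnb2 was the plexin that fell among the 4. It encodes a receptor of class 4 semaphorins that is common on macrophages and epithelial cells, and it lies at chr15:89155549-89180788 on the minus strand. Replicates 1 to 5 before culture held 7631, 8268, 8763, 5139 and 6764, and replicates 1 to 4 after culture held 4345, 5908, 2804 and 4478. Replicate 4 before culture was below replicate 2 after culture, so the groups overlapped by these samples. The mean went from 7313 ± 1427 to 4384 ± 1269 (SD, n = 5 and 4), a log2 change of -0.76 (SE 0.19, limma adjusted p = 0.00289). With the correction it was -0.07 and was not called (limma adjusted p = 0.702). Within the cultured samples the macrophage and monocyte marker sum had the same order as Plxnb2. It was 15980 in replicate 1, 24610 in replicate 2, 10571 in replicate 3 and 16347 in replicate 4. The members of that list differed in direction. Of 10 markers 5 fell, 1 rose and 4 were not called, beside 34.6% lower and 34.2% higher of all tested genes. The sum of 8 epithelial markers was 17723 to 35326 before and 2811 to 6988 after culture. Of these 8 markers 6 fell and 2 were not called, beside 34.6% lower of all tested genes. This epithelial sum was highest, and Plxnb2 lowest, in replicate 4 before and replicate 3 after culture. The part of either cell type in the fall of Plxnb2 was not tested.

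Both neuropilins rose, Nrp2 by more than Nrp1. Nrp2 encodes the co-receptor of Sema3f and VEGF-C, which on mature dendritic cells carries polysialic acid, and it lies at chr1:62703285-62818695 on the plus strand. Uncultured replicates held 2246, 2807, 2894, 1810.4 and 2261, and cultured replicates 15030.0, 17794, 11709 and 14375. Each cultured sample was more than 4 times above every uncultured one. On average Nrp2 went from 2404 ± 447 to 14727 ± 2499 (SD, n = 5 and 4), or 2.62 in log2 (SE 0.141, limma adjusted p = 2.43e-09), and 2.98 after the correction.

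Nrp1 encodes the co-receptor of Sema3a and VEGF-A, which is also known as a marker of plasmacytoid dendritic cells in human blood and of thymic regulatory T cells in mice, and it lies at chr8:128358604-128503363 on the plus strand. Its counts were 3155, 3824, 3519, 3599.9 and 2791 before culture and 4440.4, 5015, 3076 and 4776 after it. Of the cultured samples 3 were above the uncultured range and replicate 3 lay inside it. The Nrp1 mean went from 3378 ± 407 to 4327 ± 866 (SD, n = 5 and 4), or 0.34 in log2 (SE 0.135, limma adjusted p = 0.0372). The call depended on single samples: without replicate 1 or 5 before culture, or replicate 1, 2 or 4 after it, the limma adjusted p was between 0.0751 and 0.112. After the GC and length correction the change was 0.04 (limma adjusted p = 0.83). Foxp3 was not called, as given above, but was 0.43 and called after the same correction (limma adjusted p = 0.0322). Of the 6 tested markers of plasmacytoid dendritic cells 3 fell, among them Siglech (389 ± 46.7 to 11.9 ± 8.67), 1 rose and 2 were not called, with a median of -0.74, and their part was not tested.

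The DNA just before the start sites of the strongest rising genes is shown with that of Sema7a, the ligand that was not called, so that the starts of a receptor and its ligand can be read side by side. The sequences come from RefSeq on GRCm38.p6, run 5′ to 3′ on the strand of the gene and end before the first exon. Capitals mark GC boxes (GGGCGG on either strand, the motif of Sp1-type factors) and, in Sema7a, the core of an antioxidant response element (TGACNNNGC on either strand). The Nrp2 stretch is chr1:62703067-62703284 on the plus strand, the Plxnc1 stretch chr10:94944846-94945095 on the minus strand and the Sema7a stretch chr9:57939862-57940111 on the plus strand.
Nrp2: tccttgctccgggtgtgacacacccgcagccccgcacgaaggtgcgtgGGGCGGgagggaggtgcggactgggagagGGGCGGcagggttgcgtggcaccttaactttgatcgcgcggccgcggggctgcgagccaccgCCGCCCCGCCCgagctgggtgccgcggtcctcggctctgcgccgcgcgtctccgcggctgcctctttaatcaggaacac
Plxnc1: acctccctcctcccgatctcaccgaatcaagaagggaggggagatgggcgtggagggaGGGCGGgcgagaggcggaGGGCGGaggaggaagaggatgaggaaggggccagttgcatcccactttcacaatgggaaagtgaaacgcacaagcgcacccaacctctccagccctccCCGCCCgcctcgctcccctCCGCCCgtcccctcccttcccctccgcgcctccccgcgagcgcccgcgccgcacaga
Sema7a: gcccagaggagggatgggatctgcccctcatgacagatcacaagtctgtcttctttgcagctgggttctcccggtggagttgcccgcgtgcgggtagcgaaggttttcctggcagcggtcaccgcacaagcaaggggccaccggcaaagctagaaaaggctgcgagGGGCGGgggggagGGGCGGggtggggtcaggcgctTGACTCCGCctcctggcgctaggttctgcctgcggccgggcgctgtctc
All 3 stretches carry GC boxes, and a pair of those in Nrp2 share a base. RefSeq windows of 250 bases were matched for 9 of the 10 genes, in 16 windows because some genes have several starts. A GC box was in 12 of the 16, and in 32.7% of all 32851 windows of this length. This motif holds only G and C. The GC content of the 16 windows ran from 45.2% to 72.4%, beside a median of 52.4% over all windows. The counts are not adjusted for it. TGACNNNGC was in 3 of the 16 (Sema4a, Sema4d and Sema7a) and 10.2% of all windows, and the AP-1 motif TGANTCA, which can overlap it, was in 1 (Sema4d) and 6.75% of all. The cAMP response element TGACGTCA was in 0 of the 16 and 1.55% of all windows, and the TATA box TATAAA in 0 and 12.4%. GC boxes stood before genes that rose and before Sema7a, which was not called, and a match in these letters is a description of the window only.

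Levels of different genes were compared per kb of exon (normalized count divided by exon length in kb). Before culture the order was Sema7a (1588 ± 131), Sema4a (1483 ± 99.6), Plxnd1 (1224 ± 194), Sema4d (965 ± 106), Plxnb2 (947 ± 185), Plxna1 (618 ± 62.6), Plxnc1 (415 ± 17.0), Nrp1 (345 ± 41.6), Sema6d (215 ± 41.9) and Nrp2 (203 ± 37.8). In this order only the steps from Plxna1 to Plxnc1, to Nrp1 and to Sema6d were without overlap of the sample ranges. After culture Plxnc1 (2249 ± 251) came first, followed by Plxna1 (1707 ± 382), Plxnd1 (1664 ± 257), Sema7a (1478 ± 106), Nrp2 (1244 ± 211), Sema4d (1059 ± 195), Sema4a (948 ± 82.0), Sema6d (691 ± 181), Plxnb2 (568 ± 164) and Nrp1 (442 ± 88.5). All neighbours in this second order overlapped. Plxnc1 thus moved from rank 7 to rank 1, and Nrp2 from rank 10 to rank 5.

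The make-up of the receptor pool changed with these shifts. Summed per kb, the 9 plexin genes went from 3331 ± 438 to 6256 ± 763 (1.88-fold) and the neuropilins from 548 ± 64.6 to 1686 ± 292 (3.08-fold), in both cases with no overlap between groups. The 20 semaphorin genes went from 6280 ± 354 to 4717 ± 187, but with the GC and length correction the 19 that could be corrected went from 5362 ± 178 to 5672 ± 206, so no fall of this sum is read here. Corrected in the same way, the plexin sum was 2.94-fold and the neuropilin sum 3.26-fold higher after culture. Shares are of uncorrected levels. Of the plexin sum, Plxnc1 made up 12.6 ± 1.54% before and 36.4 ± 5.97% after culture, and Plxna1 18.6 ± 0.856% and 27.0 ± 3.37%. The share of Plxnb2 went from 28.2 ± 2.09% to 8.97 ± 1.88% and that of Plxnd1 from 36.6 ± 1.68% to 26.5 ± 1.08%. Nrp2 was 36.9 ± 4.49% of the neuropilin sum before and 73.9 ± 1.92% after culture, and its ratio to Nrp1 per kb was 0.416 to 0.680 before and 2.49 to 3.15 after. The 4 plexins described here held 96.1 ± 0.912% of the plexin sum before and 98.9 ± 0.271% after culture, and the 4 semaphorins 67.7 ± 2.32% and 88.5 ± 0.431% of the semaphorin sum.

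**Figure D2:**
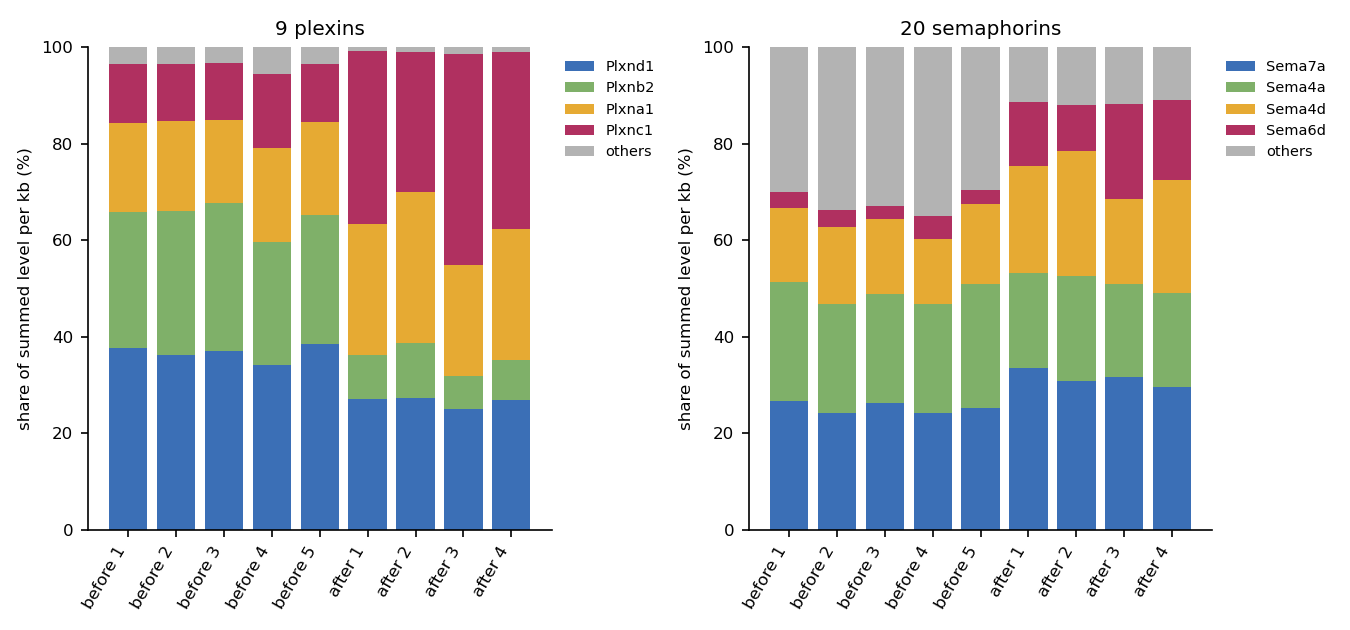
Share (%) of each gene in the summed level per kb of exon of the 9 plexin genes (left) and the 20 semaphorin genes (right), 1 bar per sample. Plxnc1 takes 11.7 to 15.4% of the plexin bar before and 29.1 to 43.7% after culture, and the grey share of the other semaphorins is smaller in every cultured sample.

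Some receptor and ligand pairs known to bind shifted in ratio. Per kb, Plxnd1 was 0.673 to 0.916 times Sema4a before and 1.54 to 2.02 times after culture. Plxnb2 was 0.845 to 1.10 times Sema4d before and 0.460 to 0.610 times after culture. The ratio of Plxna1 to Sema6d, both of which rose, ran from 1.84 to 3.58 before and 1.38 to 4.55 after culture and overlapped. These are ratios of RNA from the whole sample, and which cells held ligand and receptor was not measured.

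Most of the rest of the families fell. Of the other 21 semaphorin and plexin genes 20 could be tested, of which 15 fell, 1 rose and 4 were not called (Sema3a, Sema3e, Sema4g and Sema6c), and their median log2 fold change was -1.40. The falls of this list were 15 of 20 against 34.6% of all tested genes, and 14 of the 20 had no overlap between groups against 57.3%. The secreted ligands Sema3g and Sema3f fell furthest: Sema3g went from 1113 ± 231 to 13.3 ± 7.83 (log2 fold change -6.43, SE 0.309, limma adjusted p = 7.76e-10), and Sema3f, the ligand of neuropilin 2, from 2077 ± 387 to 46.4 ± 10.8 (-5.47, SE 0.169, limma adjusted p = 1.4e-11). Sema3c fell 5.32-fold, Sema6a 8.44-fold, Sema6b 5.35-fold, Sema4f 5.09-fold and Sema4c 2.00-fold. The GC and length correction made several falls smaller: in log2 terms Sema3f was then -4.84, Sema6b -1.57 (from -2.45), Sema4f -1.74 (from -2.34) and Sema4c -0.42 (from -1.01), all still called. Sema4b, a membrane semaphorin, was the only one of them that rose (0.32, SE 0.126, limma adjusted p = 0.0361), and its groups overlapped. That call was lost without replicate 1, 4 or 5 before culture or replicate 1, 2 or 4 after it (limma adjusted p between 0.0615 and 0.112), whereas with the correction Sema4b was 0.89 (limma adjusted p = 8.09e-06). Sema4g was called higher with the correction (1.17, limma adjusted p = 0.00512) and under quantile scaling (0.71, limma adjusted p = 0.0373). Sema3e passed without replicate 2 before culture (0.58, limma adjusted p = 0.0125) and under quantile scaling (0.62, limma adjusted p = 0.0111). The sum of the endothelial markers, given above, fell in the same direction as these ligands, and its part was not tested.

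The minor plexins fell too. Plxnb3 fell 6.37-fold (101 ± 7.51 to 15.8 ± 5.51), Plxnb1 2.80-fold (209 ± 36.8 to 74.6 ± 21.6), Plxna2 1.76-fold and Plxna3 1.76-fold. With the GC and length correction the log2 change of Plxnb3 was -2.04 (from -2.65) and that of Plxnb1 -0.77 (from -1.50), and Plxna3 was not called (-0.22, limma adjusted p = 0.168). Plxna4 fell 1.22-fold (log2 fold change -0.29, SE 0.111, limma adjusted p = 0.0307). The call of Plxna4 was lost without replicate 1 or 2 before culture or replicate 1 or 4 after it, and after the GC and length correction it was 0.15. After that correction 13 of the 20 tested genes of this list were lower and 2 higher. Of the 10 genes described first, 7 were then higher and the other 3 were not called. Under the same correction 6942 of all 17564 genes were higher and 4992 lower, together 67.9%.

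**Figure D3:**
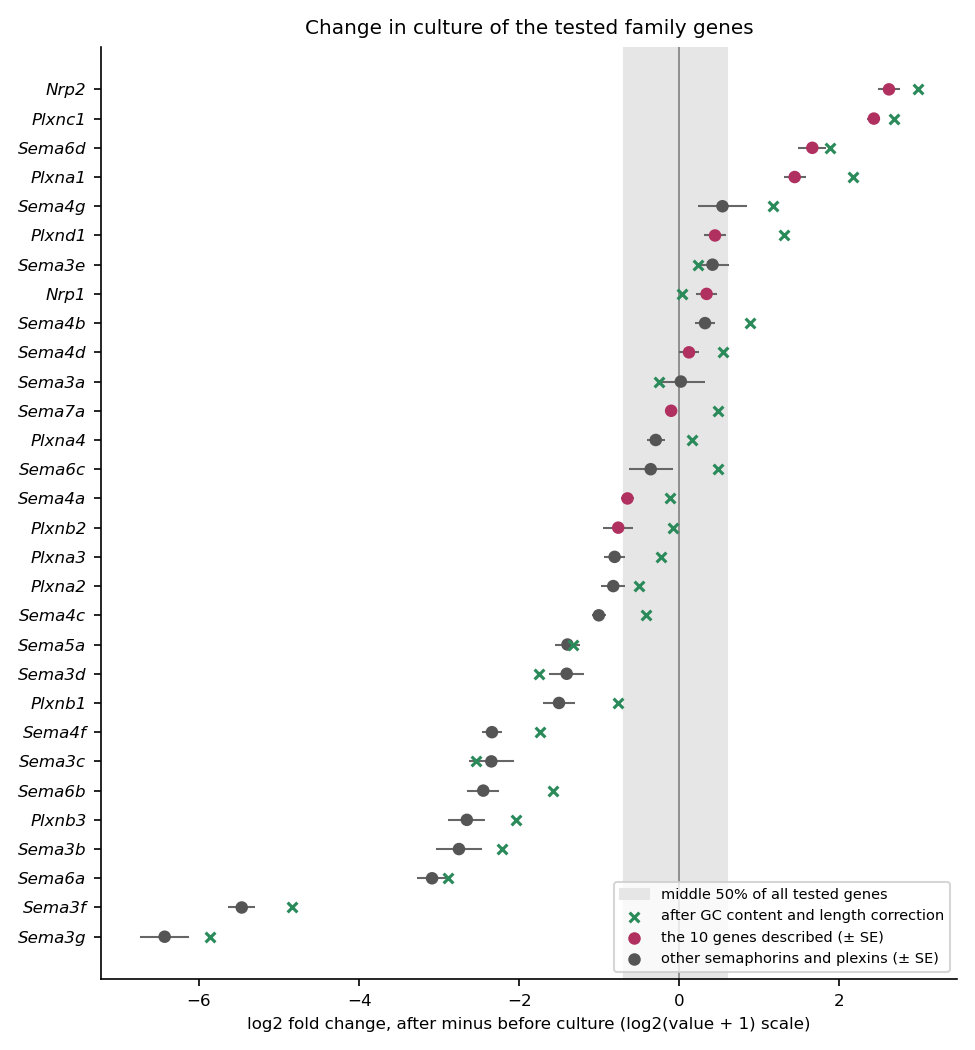
Log2 fold change, after minus before culture (horizontal axis, log2(value + 1) scale), of the 30 tested family genes; dots with bars are the estimate ± SE and crosses the value after the GC and length correction. Red dots, the 10 genes described here, run from -0.76 to 2.62, and grey dots, the other semaphorins and plexins, from -6.43 to 0.54; the grey band is the middle 50% of all tested genes.

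Other known partners of these proteins were read as a list of 11. Of them 4 rose, 6 fell and 1 was not called, beside 34.2% and 34.6% of all tested genes. After the GC and length correction 4 rose and 3 fell, beside 6942 higher and 4992 lower of 17564 genes (67.9% called in either direction). Met, the receptor of hepatocyte growth factor that associates with B-class plexins, went from 1168 ± 158 to 9198 ± 2339, or 2.94 in log2 (SE 0.162, limma adjusted p = 2.97e-09). Timd2, a receptor of Sema4a in mice, had 4, 3, 0, 4 and 0 reads before culture and 110, 127, 64 and 91 reads after it, and rose. The integrin chains that bind Sema7a parted: Itgb1 rose 1.60-fold (8823 ± 705 to 14108 ± 731) and Itga1 fell 2.41-fold (1640 ± 421 to 681 ± 156). Cd72, a receptor of Sema4d, fell 2.30-fold, and 41.6% of its exon bases overlap Tesk1 on the opposite strand. Trem2, which can join plexin A1 in a receptor complex, rose 2.04-fold (1092 ± 297 to 2232 ± 619) with overlapping groups, and its adaptor gene Tyrobp was not called (log2 fold change -0.09, SE 0.145).

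Neuropilins also bind VEGF proteins. Of 8 VEGF ligand and receptor genes 7 fell and Vegfc was not called, with a median log2 fold change of -1.76, beside 34.6% lower and a median of 0.01 over all tested genes. Vegfa, the ligand of neuropilin 1, went from 4122 ± 639 to 1447 ± 569 and Vegfc, the ligand of neuropilin 2, from 142 ± 13.9 to 128 ± 15.3. The receptor genes of endothelial cells Flt1, Kdr and Flt4 fell 5.87-fold, 3.88-fold and 4.30-fold, together with the 10 endothelial markers. Flt4 was -1.45 after the correction, from -2.10. Vegfc was then -0.32 and called lower (limma adjusted p = 0.0469). Vegfb, 1 of the 7 that fell, was then 0.08 and not called (limma adjusted p = 0.607).

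Of 38 genes that carry plexin and neuropilin signals inside the cell, 9 rose, 18 fell and 11 were not called, with a median log2 fold change of -0.11. That is 27 of 38 called, near the 68.8% of all tested genes. After the GC and length correction 14 rose and 13 fell, beside 6942 higher and 4992 lower of 17564 genes (67.9% called in either direction). Among the CRMP proteins, which bind microtubules downstream of semaphorins, Dpysl2 fell from 12351 ± 357 to 3839 ± 610 and Dpysl5 rose from 60.7 ± 15.0 to 1530 ± 227 (log2 fold change 4.65, SE 0.172, limma adjusted p = 6.63e-11, and 5.27 after the correction). The Ras-type GTPase gene Rras2 rose 3.72-fold, and Rras was not called (log2 fold change -0.10), though it was 0.38 and called after the correction (limma adjusted p = 0.0229). Mical1, which oxidizes actin below plexin A proteins, fell 3.03-fold (15.0% of its exon bases overlap Smpd2), the kinase gene Pak1 fell 4.03-fold, and Micall1, a relative of Mical1, rose 1.65-fold (26.7% overlap with 1700088E04Rik). After the correction Mical1 was -1.01 (from -1.60) and Micall1 1.40 (from 0.73). Of 5 genes of proteases that cut semaphorins or process them, Adam10 rose 1.92-fold and Adam17 1.57-fold, Furin fell 3.98-fold and Adamts4 9.62-fold, and Mmp14, known to release Sema4d from the cell surface, was not called (0.42, SE 0.219, limma adjusted p = 0.104). Of these, Furin was -1.39 (from -1.99) and Mmp14 0.84 and called (limma adjusted p = 0.00229) after the correction.

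Within the groups the same samples were often the lowest. Replicate 4 before culture was the lowest of its group in 7 of the 10 genes, and replicate 3 after culture was the lowest of its group in 7 of the 10. Both were the highest of their groups in Sema6d. They carry the same number in their library names (correlation of their deviations 0.349), as do replicate 3 before and replicate 2 after culture (0.247). Whether that number marks a shared animal or day is not labelled. Replicate 2 after culture was highest in 6 of the 10 and lowest in Sema6d and Plxnc1. How often each sample was lowest or highest over all tested genes was not counted. These counts therefore cannot be read as a trait of the 10 genes. The macrophage and monocyte marker sum lay at -0.66 log2 units from its group mean in replicate 4 before culture, at -0.61 in replicate 3 after culture and at 0.61 in replicate 2 after culture, and the epithelial marker sum lay at 0.69 in replicate 4 before culture and 0.90 in replicate 3 after culture. Plxnb2 had the widest spread of the 10 on this scale, from -0.59 to 0.48 after culture, and Plxnc1 before culture the narrowest, from -0.07 to 0.07. The part of cell make-up in these differences was not tested. Without replicate 4 before culture and replicate 3 after culture, chosen for this after seeing the data, 7 of the 10 genes rose and 2 fell. Over all 18060 genes of that fit 6224 were higher and 6351 lower. Sema4d then passed at 0.18 (limma adjusted p = 0.0314) and Nrp1 stood at 0.52 (limma adjusted p = 3.08e-04). The other 8 genes had the same call and direction as with all samples.

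**Figure D4:**
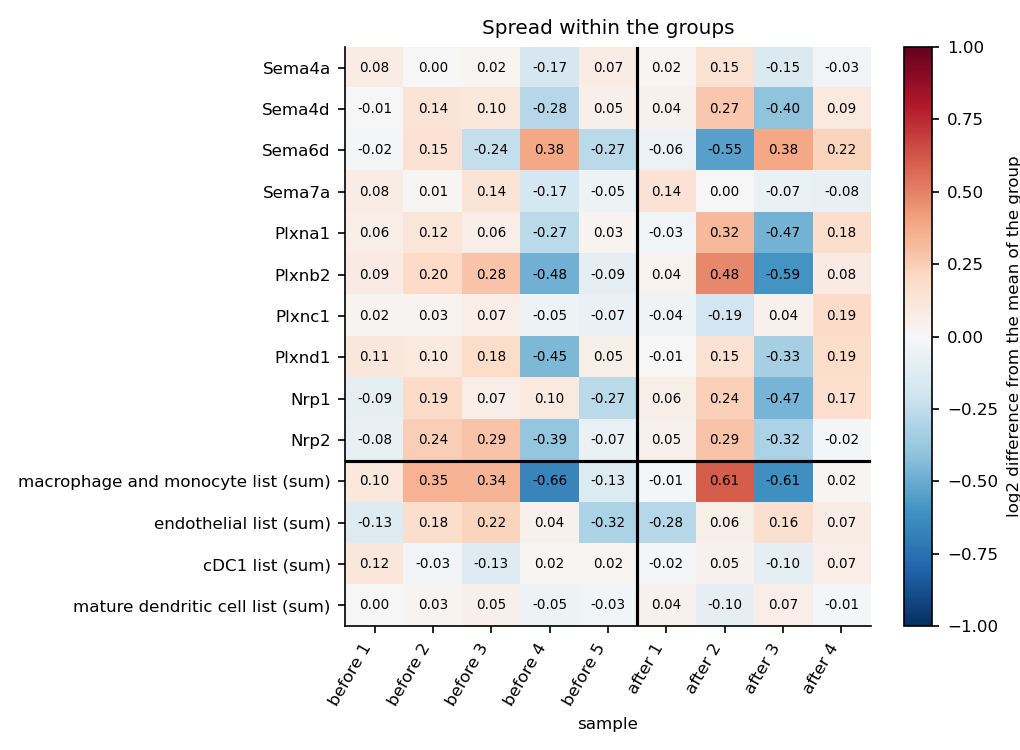
Log2 difference of each sample from the mean of its own group (colour and printed value) for the 10 genes and for the summed level of 4 marker lists, 1 column per sample. Replicate 4 before and replicate 3 after culture are blue in most gene rows and red in Sema6d, and the macrophage and monocyte row is blue there too, at -0.66 and -0.61.

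For each of the 10 genes the most similar other gene over the 9 samples was sought among 11705 genes with a mean of at least 100, by Pearson's r of log2(normalized count + 1). The samples form 2 groups, so any gene that differs between them reaches a high r, and r is given as a description only. The closest gene was Mfhas1 for Nrp2 (r = 0.999), Tmem168 for Plxnc1 (0.999), S1pr2 for Plxna1 (0.998), Imp3 for Sema4a (0.998) and Nr2c2 for Sema6d (0.998). For Plxnb2 it was C1qb (0.997), a complement gene on the macrophage and monocyte list, which went from 7424 ± 2407 to 2941 ± 1485. Those of the 10 genes with the smallest uncorrected log2 fold changes had looser partners: Atp6v0c for Plxnd1 (0.979), Lasp1 for Sema4d (0.975), Mrtfb for Nrp1 (0.963) and Tmbim1 for Sema7a (0.938).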

How the data were processed

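The values used are a non-negative signal, normalized counts by gene, in 1 table that the authors deposited, with 49317 rows and 9 sample columns identified by library name. The submitters' processing notes name DESeq2 and the build GRCm38, with no role given. The aligner, the counter, the annotation, strandedness and filters are not given in the sources used here. Each column has 1 smallest step, and all values (100%, tolerance 1e-06 reads) came out whole when divided by it, so the deposited values are counts over 1 factor per sample and whole reads were recovered. Neither length nor GC content is accounted for in them. The 3782 rows without a symbol held 6.43 to 10.9% of reads before and 3.87 to 5.46% after culture and were left out. Depth was 14.7 to 35.3 M named reads per sample, so the spread between replicates, not counting error, limits precision for the 10 genes. Timd2 before culture (0 to 4 reads) and Sema3g after it (7 to 25 reads) rest on few reads.

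Genes with a mean of at least 10 (18202) were fitted on the log2(value + 1) scale by limma (version 3.58.1, R 4.3.3), with a mean-variance trend and group as the only term, two-sided, with Benjamini-Hochberg adjustment over all of them and a threshold of 0.05. Intervals are 95% intervals from the moderated fit. The 10 genes and the lists were chosen with earlier results of these data known, so they are described by counts and medians without a test of the list. All 10 genes are named, as may be every tested family gene. Of each other list, up to 3 genes per direction with the smallest adjusted p and genes set by name may be named, and for each of the 10 genes the most correlated gene. Gm26811, Tesk1, Smpd2, 1700088E04Rik, Rras, Mmp14, Vegfc, L1cam, Vegfb and the epithelial sum were added after their values were seen. GC content, for 96.5% of tested genes, and exon lengths came from GENCODE M21 (GRCm38). Alternatives were pseudocounts of 0.5 and 8, no minimum and a minimum mean of 50, TMM and quantile scaling, edgeR 4.0.16 and DESeq2 1.42.0 on recovered reads, a replicate block, and leaving out each sample. Leaving out 2 samples together and the correction for GC content and length (natural splines with 5 degrees of freedom each, per sample) were added after seeing the data. The fit was tested on simulated counts. Figures were drawn with matplotlib 3.10.9 in Python 3.11.15.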

Additional observations from a re-analysis of the deposited data

Results flagged for a closer look

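A sample was set apart when its gap to the nearest other sample of its group was too large a part of the group's range (Dixon's criterion at 95%), which chance gives for about 1 in 20 groups. Of 104 groups checked over the family and list genes, 6 were set apart. Before culture, replicate 4 was the low sample in Plxna1 (4610 normalized counts), Plxnd1 (about 6470) and Cd72 (614), and the high sample in Plxna2 (840). After culture, replicate 2 was the high sample in Kdr (840) and the low sample in Flt4 (103). In Plxnd1 the change without that uncultured replicate kept its direction and its call.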

How the results depend on the processing

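Of the 10 genes, Nrp2, Plxnc1, Sema6d, Plxna1 and Plxnd1 kept their direction and call under every alternative run. Under the GC and length correction, Sema4a was -0.12 and Plxnb2 -0.0737 (calls lost), Nrp1 0.0374 (call lost), Sema4d 0.55 (call gained) and Sema7a 0.49 (sign turned, called). Among the other semaphorins and plexins, the partners and the VEGF genes the same correction turned the sign of Sema3a (-0.25), Sema6c (0.49), Plxna4 (0.15), Tyrobp (0.20), L1cam (0.0385) and Vegfb (0.0762), and on the signalling list that of 7 genes; the cause was not tested. Without replicate 4 before and replicate 3 after culture, Sema4d was 0.18 (call gained) and Tyrobp 0.0265. Leaving out 1 sample at a time gave 0.0327 to 0.256 for Sema4d, 0.26 to 0.50 for Nrp1, -0.20 to 0.15 for Sema3a and -0.219 to 0.0838 for Tyrobp. Sema3a, near 0 throughout, was also -0.0352 with edgeR and -0.0244 with DESeq2. Between 7 and 9 of the 10 genes were called in each fit, beside 11656 to 12865 of all genes in the fits that tested 18202. For samples with the same number in their titles the correlation of deviations was -0.213 to 0.0807. Such values cannot tell whether the numbers mark pairs, and the labels do not say. A replicate block by title number, which left out replicate 5 before culture, gave 11656 calls over all genes, with Nrp1 at 0.27 (call lost) and Sema3a at -0.20. Numbers in the library names gave correlations of 0.0447 to 0.349. Every cultured sample agreed best with its own library number, a hint from the data only. A block by library number, which left out replicate 2 before culture, gave 12865 calls, against 12524 in all 9 samples without a block. In that block Nrp1 was 0.39 and kept its call, and Sema3e (0.58) and Sema4g (0.62) gained calls. The 2 blocks thus also differ in the sample left out. With no block, Nrp1 was 0.27 without replicate 5 before culture (limma adjusted p = 0.0929). Without replicate 2 before culture it was 0.39 (limma adjusted p = 0.0305). These are the same estimates and calls as in the blocks, so the blocks do not show an effect of the numbering on Nrp1. Depth was not limiting for the 10 genes, and with few reads a pseudocount of 8 moved Timd2 from 4.99 to 3.11 and Sema3g from -6.43 to -5.76.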
